A study of Homo sapiens with 2 samples.

Results

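Prostanoids are short-lived lipid mediators made from arachidonic acid. A cyclooxygenase (PTGS1 or PTGS2) first forms prostaglandin H2, which terminal synthases turn into prostaglandin E2 (PTGES, PTGES2, PTGES3), prostacyclin (PTGIS) or thromboxane A2 (TBXAS1), and each product acts on G-protein-coupled receptors of its own. The gene group described here holds 10 genes of this pathway out of 25702 gene features counted: these 7 enzymes, the thromboxane receptor TBXA2R and the prostaglandin E2 receptors PTGER2 and PTGER4. They were chosen by name, through the Entrez number of each row, after the ratios of PTGIS and TBXA2R in these same libraries were known. Their differences are therefore a description and support nothing beyond themselves.

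The cells were REH (labelled REH-R), a cell line from human B-ALL, a leukaemia of B-cell precursors. PAX5 cells carried a tet-regulated cassette that joins PAX5, a master regulator of B-lineage identity, through an internal ribosome entry site to green fluorescent protein (GFP). Control cells carried the tet-regulated ribosome entry site and GFP without PAX5. All cells were given 1 µg/mL doxycycline over 3 days before sorting for GFP. The labels do not say whether either line was a clone or a pool. Each group is 1 library, so differences are given without a p-value and were not checked in replicates. The comparison asks which transcripts differ once PAX5 is switched on.

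The libraries held 11944765 counts (PAX5) and 10997864 counts (control). PAX5 itself had 8319 counts in PAX5 cells and 2660 in control cells, so the control cells contained PAX5 transcript as well. Markers of B-cell precursor leukaemia were abundant in both libraries, with a sum of 8002 CPM (scaled counts per 1000000) in PAX5 cells and 7763 CPM in control cells. Ratios are PAX5 over control, each with an exact 95% interval for counting error alone. The rule for a call, higher or lower, was an interval that lay wholly at or beyond 2-fold, in a gene with at least 10 counts over both libraries. In RNA from a population of cells sorted for GFP, fewer cells with a transcript and less transcript per cell cannot be told apart.

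Start-site windows of 300 bases are shown to compare the promoters of these genes, and were read from RefSeq on GRCh38.p14 for 9 of the 10 genes (12 windows, each 250 bases before to 50 after a start). PTGIS has no window in the table. Printed below are the windows of the cyclooxygenase pair, of which PTGS1 had counts and PTGS2 had none, and of TBXA2R, the receptor with the widest gap in counts between the libraries. Capitals mark matches on either strand to the TATA box (TATAAA), the GC box (GGGCGG) or TGACG, a core of cyclic AMP response elements.
PTGS1, first start, chr9:122370283-122370582, plus strand: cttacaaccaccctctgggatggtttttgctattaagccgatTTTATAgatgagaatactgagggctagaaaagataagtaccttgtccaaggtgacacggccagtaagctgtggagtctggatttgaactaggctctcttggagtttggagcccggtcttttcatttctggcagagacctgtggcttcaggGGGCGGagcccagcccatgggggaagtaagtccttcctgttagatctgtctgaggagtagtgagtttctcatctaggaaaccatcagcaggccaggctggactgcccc
PTGS1, start inside the gene, chr9:122375052-122375351, plus strand: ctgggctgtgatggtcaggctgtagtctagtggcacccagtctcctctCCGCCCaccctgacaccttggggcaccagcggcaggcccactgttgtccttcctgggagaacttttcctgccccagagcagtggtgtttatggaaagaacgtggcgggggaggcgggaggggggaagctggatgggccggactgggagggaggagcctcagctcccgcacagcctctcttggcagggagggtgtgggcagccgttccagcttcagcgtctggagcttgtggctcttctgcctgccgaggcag
PTGS2, chr1:186680374-186680673, minus strand: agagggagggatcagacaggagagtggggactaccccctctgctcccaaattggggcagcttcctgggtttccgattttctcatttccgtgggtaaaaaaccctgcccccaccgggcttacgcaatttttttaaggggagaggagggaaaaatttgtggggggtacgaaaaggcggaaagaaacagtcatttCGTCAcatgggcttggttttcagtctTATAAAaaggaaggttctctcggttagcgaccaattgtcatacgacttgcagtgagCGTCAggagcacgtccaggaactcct
TBXA2R, chr19:3606826-3607125, minus strand: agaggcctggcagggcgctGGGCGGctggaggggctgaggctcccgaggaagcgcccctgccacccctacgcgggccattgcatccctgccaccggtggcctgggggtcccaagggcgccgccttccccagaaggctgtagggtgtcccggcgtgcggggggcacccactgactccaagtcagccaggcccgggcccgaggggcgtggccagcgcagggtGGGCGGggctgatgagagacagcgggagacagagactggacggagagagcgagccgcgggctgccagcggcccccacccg

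The PTGS2 window holds TATAAA from -32 to -27 relative to the start and has 2 matches to TGACG, from -58 to -54 and from 25 to 29. Neither PTGS1 window has a match to TGACG, and the only TATAAA match in either is on the opposite strand from -208 to -203 of the first. The TBXA2R window has 2 GC boxes, 24 CpG sites and no TATAAA. Over all 12 windows, 10 hold a GC box, 3 hold TATAAA and 3 hold TGACG, against 45.0%, 11.5% and 24.6% of 35116 RefSeq windows of the same length. The 12 windows are not independent, because they come from 9 genes. PTGS1 and PTGES2 have more than 1 window, and each of these holds a GC box. Of the 9 genes, only PTGS2 and TBXAS1 have no GC box. CpG sites range between 1 (TBXAS1) and 43 (a PTGES2 window), around a median of 14 for all windows. A match is a stretch of letters and was not examined as a binding site. Counts per gene do not separate the 2 starts of PTGS1.

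Of the 10 genes, 8 reached 10 counts. PTGIS was higher in PAX5 cells by the 2-fold rule, none was lower and 7 were neither. By the same rule, 1.34% of the 13532 features with at least 10 counts were higher and 0.0517% were lower. The interval lay off 0 for 4 of the 8 genes, against 35.5% of all features. It lay above 0 for PTGIS and PTGS1, where 18.7% of all features did, and below 0 for TBXA2R and PTGES3, where 16.8% did. PTGIS reached the minimum through the PAX5 library alone. The median log2 ratio of the 8, with PTGIS at its ratio over 3 control counts, was -0.13, against -0.01 for all features.

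**Figure D1:**
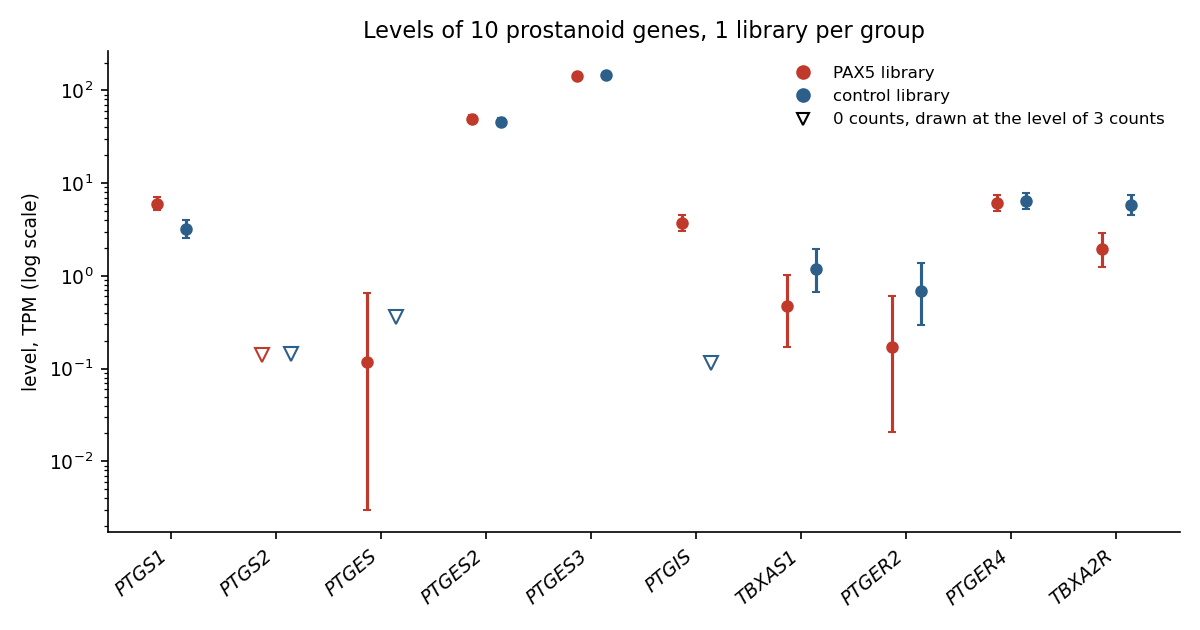
Level of each gene per length (TPM, transcripts per 1000000, log axis) in PAX5 cells (red) and control cells (blue), 1 library each. Bars are exact 95% Poisson intervals, and open triangles stand for 0 counts, drawn at the level that 3 counts would give. PTGES3 and PTGES2 stand far above the others in both libraries, and PTGIS has 3.75 TPM in PAX5 cells and 0 counts in control cells.

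Of the cyclooxygenases, which catalyse the committed step of the pathway, PTGS1 was the isoform with counts. PTGS1, the constitutive form (Entrez 5742), had 146 counts (12.3 CPM) in PAX5 cells and 77 counts (6.97 CPM) in control cells, a ratio of 1.76-fold (1.33 to 2.35). The interval lay above 0, but its lower bound was under 2-fold and the gene was not called. PTGS1 is counted over 5093 bases, and long genes were higher in PAX5 cells in general. Between the shortest and the longest of 10 equal groups of features by length, the median log2 ratio ran from -0.21 to 0.19. Relative to features of its own length group, the log2 ratio of PTGS1 was 0.72 (0.31 to 1.13), against 0.82 (0.41 to 1.23) without that centring. PTGS2, the form that inflammatory signals induce (Entrez 5743), had 0 counts in both libraries. With a limit of 3 counts for an observed 0, used throughout, PTGS2 may have been at up to 0.252 CPM in PAX5 cells and 0.272 CPM in control cells.

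The prostaglandin E2 synthases differed widely in level, and PTGES3 and PTGES2 differed little between the libraries. PTGES3 (Entrez 10728), which is also the HSP90 cochaperone p23, was the most abundant gene of the group, at 1304 counts and 143 TPM in PAX5 cells and 1318 counts and 147 TPM in control cells. Its level exceeded 91.5% of the features detected in PAX5 cells and 91.8% of those in control cells. The log2 ratio was -0.12 (-0.23 to -0.01), with an interval just below 0. Centred on its length group it was -0.03 (-0.15 to 0.08), and the interval then held 0. RefSeq lists 5 pseudogenes of PTGES3, none of them a row of the count table, so reads of these copies may have been added or lost.

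PTGES2 (Entrez 80142), a membrane-associated synthase, had 552 counts (49.5 TPM) in PAX5 cells and 504 counts (46.1 TPM) in control cells, a log2 ratio of 0.03 (-0.15 to 0.20). By counting error alone, its interval reaches 1.15-fold higher and 1.11-fold lower in PAX5 cells. PTGES (Entrez 9536), the inducible microsomal synthase that is coupled to PTGS2, had 1 count in PAX5 cells and 0 in control cells, and no ratio is given. The inducible pair of cyclooxygenase and E2 synthase was thus at or under 1 count in each library.

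PTGIS (Entrez 5740) encodes prostacyclin synthase, a cytochrome P450 best known from endothelium and smooth muscle, whose product opposes platelet aggregation. It had 100 counts (8.41 CPM, 3.75 TPM) in PAX5 cells and 0 in control cells. The ratio was 31.0-fold over a floor of 3 control counts, and the lower interval bound was 24.7-fold. It ranked 11 by that bound among the features with intervals above 0. At 3.75 TPM its level exceeded 32.8% of the features detected in PAX5 cells, below PTGS1 (6.02 TPM) and above TBXA2R (1.94 TPM). The limit of 3 counts corresponds to 0.115 TPM for PTGIS in control cells. The RefSeq span of PTGIS overlaps the long noncoding RNA gene LOC101927486, which is not a row of the count table. Reads of that gene may be among the PTGIS counts.

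Markers of the cells known for PTGIS were summed beside it. Endothelial markers were at 0.673 CPM in PAX5 cells and 0.724 CPM in control cells, with CDH5 and TEK at 0 in both and 8 counts over 5 genes in each. Fibroblast and smooth muscle markers summed to 52.5 CPM in PAX5 cells and 61.6 CPM in control cells, with COL3A1 and LUM at 0. Most of these counts came from PDGFRB, at 473 in PAX5 cells and 563 in control cells, a log2 ratio of -0.36 (-0.54 to -0.18). The other members with at least 10 counts had more counts in PAX5 cells, with intervals that held 0. COL1A1 had 115 counts in PAX5 cells and 93 in control cells, a log2 ratio of 0.20 (-0.21 to 0.61). ACTA2, the smooth muscle actin, had 34 counts in PAX5 cells and 24 in control cells, a log2 ratio of 0.40 (-0.40 to 1.21). The median of these 3 genes was 0.20, opposite in sign to the difference of the sums, and the part of such cells in the PTGIS counts was not tested.

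TBXAS1 (Entrez 6916), thromboxane A synthase, is the related cytochrome P450 of platelets and monocytes. It had 6 counts in PAX5 cells and 15 in control cells, a log2 ratio of -1.43 (-3.08 to 0.02), so its interval held 0. Its RefSeq span overlaps the long noncoding RNA genes LOC107986853 and LOC105375532, also absent from the count table, so its counts may hold reads of those genes. PTGIS and TBXAS1 compete for the same substrate. Per length, PTGIS was at 3.75 TPM (3.05 to 4.56) and TBXAS1 at 0.468 TPM (0.172 to 1.02) in PAX5 cells. In the control library PTGIS was at 0 TPM (0 to 0.141) and TBXAS1 at 1.19 TPM (0.668 to 1.97). The order of these synthases therefore differed between the libraries, and in each their counting intervals did not overlap. Because PTGIS was chosen with its ratio known, this order describes these libraries and is no further support.

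**Figure D2:**
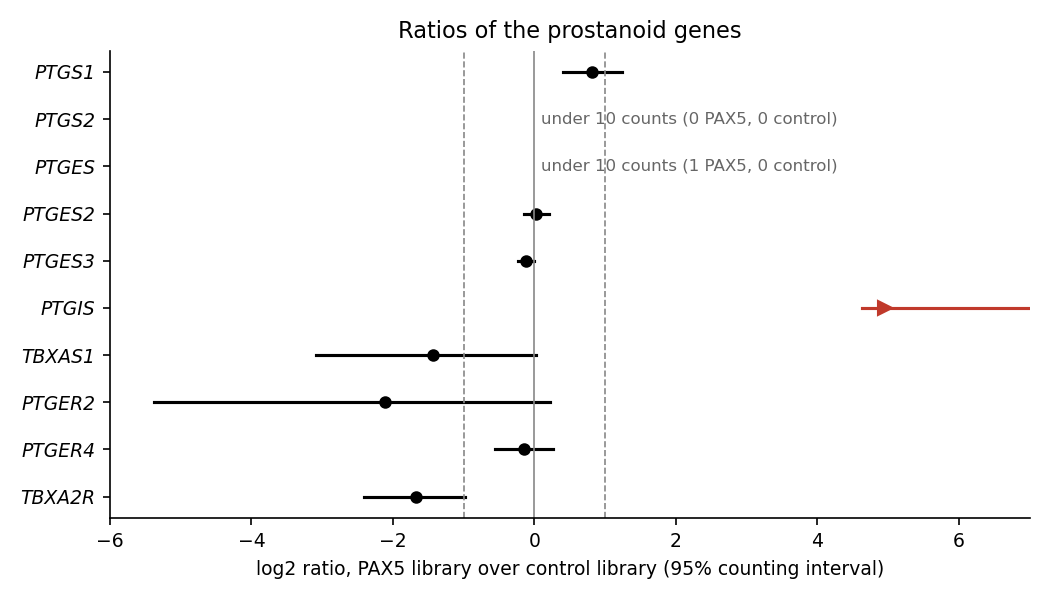
Log2 ratio of each gene, PAX5 library over control library, with exact 95% counting intervals; dashed lines mark 2-fold. PTGIS (red, arrow at 4.95, its ratio over 3 control counts, with the bar from its interval bound of 4.63) lies beyond the line, the upper bound of TBXA2R at -0.99 ends just short of it, and PTGER2 and TBXAS1 have wide intervals that include 0.

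Of the receptors, TBXA2R showed the widest gap in counts. TBXA2R (Entrez 6915), the thromboxane receptor that couples to Gq and G12/13, had 24 counts (2.02 CPM) in PAX5 cells and 71 counts (6.43 CPM) in control cells. The gene was 3.18-fold lower in PAX5 cells (1.98 to 5.29), a log2 ratio of -1.67 (-2.40 to -0.99). The bound missed the 2-fold rule narrowly and passed it under upper-quartile scaling. It ranked 9 by that bound among the features with intervals below 0. Per length, TBXA2R was at 1.94 TPM in PAX5 cells and 5.85 TPM in control cells, where its interval overlapped that of PTGER4 at 6.46 TPM.

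PTGER4 (Entrez 5734), the Gs-coupled EP4 receptor, was at similar counts in both libraries. It had 100 counts (6.15 TPM) in PAX5 cells and 103 counts (6.46 TPM) in control cells, a log2 ratio of -0.15 (-0.56 to 0.26). Its RefSeq span overlaps TTC33 (1300 counts in PAX5 cells, 1224 in control cells), and RefSeq lists 3 pseudogenes of it, so its counts are uncertain. PTGER2 (Entrez 5732), the Gs-coupled EP2 receptor, had 2 counts in PAX5 cells and 8 in control cells. Its log2 ratio of -2.11 had an interval of -5.38 to 0.22, which holds 0. Of this receptor pair, EP4 thus had nearly all the counts.

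TBXA2R and TBXAS1 are also known from platelets and monocytes, and the markers of those cells were summed beside them. Of 8 monocyte, macrophage and neutrophil markers, 3 had at least 10 counts and all 3 (ITGAM, CSF1R and MPO) had intervals below 0, where 16.8% of all features did. The list summed to 66.6 CPM in PAX5 cells and 132 CPM in control cells, most of it MPO, with FCGR3A, S100A8 and S100A9 at 0 in both and CD14 and LYZ at no more than 3 counts. Its part in the lower counts of TBXA2R was not tested. Platelet markers summed to 5.30 CPM in PAX5 cells and 4.89 CPM in control cells, with PF4 and PPBP at 0. The others went both ways. GP1BA had 43 counts in PAX5 cells and 24 in control cells, a log2 ratio of 0.74 (-0.02 to 1.52). ITGA2B had 18 in PAX5 cells and 26 in control cells, a log2 ratio of -0.64 (-1.59 to 0.29). GP9 had 2 in PAX5 cells and 4 in control cells. T-cell and erythroid markers had at most 2 summed counts in either library.

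The order of levels per length was PTGES3, PTGES2, PTGER4, PTGS1, PTGIS, TBXA2R, TBXAS1, PTGER2, PTGES and PTGS2 in PAX5 cells. In the control library it was PTGES3, PTGES2, PTGER4, TBXA2R, PTGS1, TBXAS1 and PTGER2, with PTGIS, PTGS2 and PTGES at 0. Neighbours with overlapping intervals in PAX5 cells were PTGER4 with PTGS1, TBXAS1 with PTGER2, PTGER2 with PTGES, and PTGES with PTGS2. In the control library they were PTGER4 with TBXA2R, TBXAS1 with PTGER2, and the 3 genes at 0. Counts above 0 were found for 9 of the 10 genes in PAX5 cells and for 7 in control cells. Over all 25702 features, 16420 had counts above 0 in PAX5 cells and 15999 in control cells. The genes at 0 in control cells alone were PTGIS, chosen with its ratio known, and PTGES, at 1 count in PAX5 cells.

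**Figure D3:**
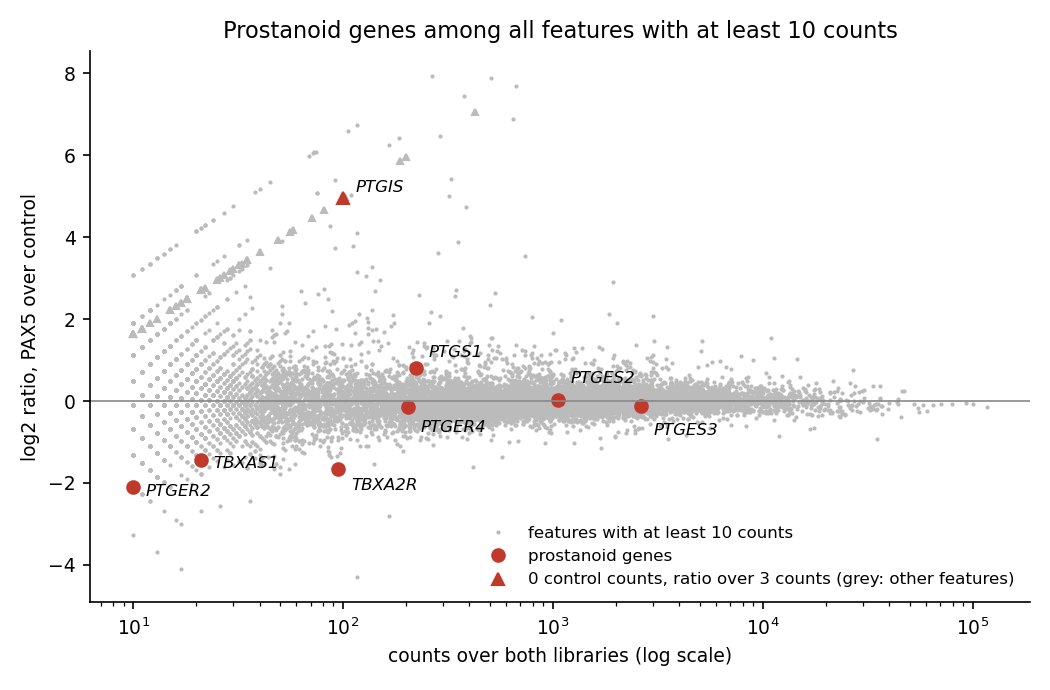
Log2 ratio (PAX5 over control) against counts over both libraries (log axis) for the 13532 features with at least 10 counts in grey and the 8 prostanoid genes among them in red; triangles are features with 0 control counts, drawn at their ratio over 3 counts. PTGIS (100 summed counts) and TBXA2R (95) lie apart from the bulk of the grey points, and PTGES2, PTGES3 and PTGER4 lie within it.

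Over the 2 libraries, the genes nearest to PTGIS in log2(CPM + 0.5) were the receptor tyrosine kinase EPHA2 (102 counts in PAX5 cells, 0 in control cells), the protein kinase PRKCZ (104 in PAX5 cells, 1 in control cells) and the chemokine CCL17 (81 in PAX5 cells, 0 in control cells). Among the nearest to TBXA2R were TIE1 (26 in PAX5 cells, 62 in control cells) and SPARC (28 in PAX5 cells, 66 in control cells). With 2 libraries such likeness means only similar counts in each.

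The neighbouring genes described here did not share the differences of PTGIS and TBXA2R in size. Beside PTGIS, B4GALT5 had 1424 counts in PAX5 cells and 927 in control cells, a log2 ratio of 0.51 (0.39 to 0.63). SLC9A8, next to it, had 0.31 (-0.09 to 0.71), and the small nucleolar RNA SNORD12 had 0 counts in PAX5 cells and 3 in control cells. Around TBXA2R, log2 ratios were -0.36 for GIPC3, -0.15 for HMG20B, 0.05 for CACTIN and 0.31 for PIP5K1C. Beside PTGS1, RBM18 (-0.15) and MRRF (-0.17) had intervals that held 0, and the olfactory receptor genes OR1J1 and OR1J2 had at most 2 counts. Beside PTGES3, NACA and PRIM1 had log2 ratios of -0.19 and -0.18, and SNORD59A and SNORD59B had 2 counts each in PAX5 cells and 0 in control cells. Of the 40 nearest genes of the group, 2 on each side of each, 26 had at least 10 counts and none passed the 2-fold rule, by which 1.34% of all features were higher and 0.0517% lower. KDM7A near TBXAS1, named after its values were seen, came closest, with 683 counts in PAX5 cells and 287 in control cells, a log2 ratio of 1.15 (0.94 to 1.35). PTGS2 lies next to PLA2G4A, the cytosolic phospholipase A2 that supplies cyclooxygenases, and both had 0 counts in both libraries.

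Other genes of the pathway were taken as 9 lists with 82 genes, of which 54 had at least 10 counts. By the 2-fold rule 2 were higher (DAGLA and ADCY7) and 1 was lower (FOS) in PAX5 cells, against 1.34% and 0.0517% of all features. Intervals lay above 0 for 12 genes and below 0 for 15 of the 54, where 18.7% and 16.8% of all features did.

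Of 12 genes that release arachidonic acid, 5 had at least 10 counts, 5 had 0 in both libraries and the median log2 ratio was 0.25. DAGLA, the diacylglycerol lipase that makes 2-arachidonoylglycerol in neurons, had 33 counts in PAX5 cells and 2 in control cells, 15.3-fold higher (3.92 to 132). Its relative DAGLB, with 1405 counts in PAX5 cells and 1611 in control cells, had a log2 ratio of -0.30 (-0.41 to -0.20). The paralogs thus lay on opposite sides of 0, and DAGLB had many more counts than DAGLA in each library.

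No other prostanoid branch had a gene past the rule, by which 1.34% of all features were higher and 0.0517% lower. The interval lay off 0 for 35.5% of all features, and each branch had few genes with at least 10 counts. Of 6 prostaglandin D2 and F2alpha enzymes, 3 had at least 10 counts and all 3 intervals held 0, with a median log2 ratio of -0.07. Of the 6 other prostanoid receptors, PTGDR alone had at least 10 counts, 71 in PAX5 cells and 88 in control cells. The prostacyclin receptor PTGIR had 0 counts in both libraries, also in the one with PTGIS transcript. Of 6 transport and breakdown genes, 4 had at least 10 counts, with a median of -0.17 and all intervals holding 0. Among 11 lipoxygenase and leukotriene genes, 6 had at least 10 counts (median -0.27). ALOX5, the 5-lipoxygenase, had a log2 ratio of 0.27 (0.09 to 0.45), while its activating protein gene ALOX5AP had -0.40 (-0.75 to -0.05) and the leukotriene receptor gene CYSLTR1 had -0.36 (-0.67 to -0.06). The intervals of ALOX5AP and CYSLTR1 held the median of their length groups (-0.21 and -0.12), and that of ALOX5 lay above the median of its own (-0.04).

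**Figure D4:**
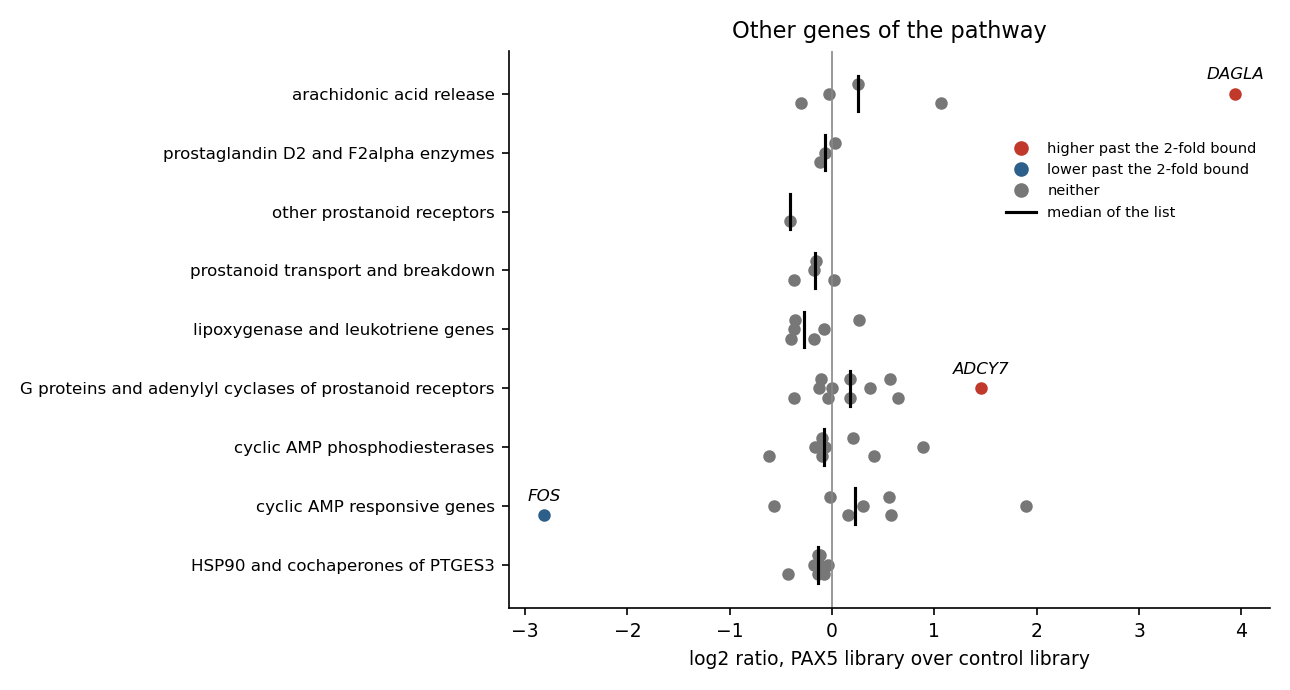
Log2 ratio (PAX5 library over control library) of the 54 genes with at least 10 counts in 9 lists of related genes; black bars are list medians. DAGLA and ADCY7 (red) pass the 2-fold bound on the higher side and FOS (blue) on the lower side, and most other genes lie between -1 and 1.

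Downstream of the receptors, G proteins and adenylyl cyclases had 5 of 11 measured intervals above 0 and 2 below, against 18.7% and 16.8% of all features, with a median of 0.17. Of the 5, ADCY7, ADCY9 and GNA13 are long, in length groups whose median log2 ratio was 0.10 or 0.19. ADCY7, an adenylyl cyclase of blood cells, had 266 counts in PAX5 cells and 90 in control cells, 2.75-fold higher (2.15 to 3.53). ADCY9 (log2 ratio 0.56), GNA11, which encodes a Gq-family subunit (0.64), and GNA12 (0.37) had intervals above 0 without passing the rule. Cyclic AMP phosphodiesterases had a median of -0.08 over 8 genes. PDE4B had a log2 ratio of 0.89 (0.56 to 1.23) and PDE4D of 0.41 (0.06 to 0.76), while PDE4C had -0.62 (-1.07 to -0.17).

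Genes that respond to cyclic AMP went both ways, with a median of 0.23 over 8. FOS, an immediate early transcription factor, had 22 counts in PAX5 cells and 144 in control cells, 7.04-fold lower (4.48 to 11.6). DUSP1 (log2 ratio 0.57), SIK1 (0.55) and CREM (0.30) had intervals above 0. HSP90 and its cochaperones, the partners of PTGES3, had 7 of 8 intervals below 0, where 16.8% of all features did, and a median of -0.14. HSP90AA1 had a log2 ratio of -0.14, HSP90AB1 of -0.12 and the immunophilin gene FKBP4 of -0.43 (-0.54 to -0.32), and none passed the rule. These are abundant genes with narrow intervals, and the 5339 features with at least 1000 counts had a median absolute log2 ratio of 0.13. The ratios are not centred on length. The intervals of AHSA1, CDC37 and HSP90B1 held the median of their length groups (-0.12, -0.09 and -0.04). Those of HSP90AA1, HSP90AB1, STIP1 and FKBP4 lay below the medians of theirs.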

How the data were processed

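Per the submitters' processing notes, the authors used featureCounts on hg19 (GRCh37). They deposited whole-number read counts, not normalized, with a length in bases for each Entrez gene. The kit was NEBNext Ultra RNA, per the labels' protocols. How reads were aligned, whether strand was used and how reads with several matches were handled is not given in the sources used here, so reads of overlapping genes cannot be told apart. Groups came from the genotype labels. Columns of the series table were matched to libraries through the library number, which also names each library's file, and all 51404 values equalled those files.

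Symbols were matched by Entrez number to RefSeq (GRCh38.p14) for 23696 of 25702 features. Scaling was by TMM (edgeR 4.0.16, R 4.3.3) over features with at least 10 counts, with factors of 0.9954 (PAX5) and 1.0046 (control). Without residual degrees of freedom no count model could be tested. Ratios have exact Clopper-Pearson intervals from scipy 1.17.1, and levels per length (TPM) have exact Poisson intervals. Both cover counting error only, because 1 library per group gives no measure of variation between cultures. PCR copies are not independent molecules, so the intervals may be too narrow even for counting error. A library at 0 was set to a floor of 3 counts. The calculation was tested on simulated data. The genes, lists and rules were chosen with earlier results of these data known. Named genes are PAX5, the 10 prostanoid genes, list members past the rule with up to 3 others of the bound farthest from 0, the 3 nearest in counts to PTGIS and TBXA2R, and chromosomal neighbours of genes with intervals off 0. Some genes that this rule names are not reported here. Genes named beside these, such as markers, PLA2G4A, PTGDR and PTGIR, were named after their values were seen. Alternatives were other scalings (DESeq2 1.42.0 size factors among them), count minimums, fold thresholds, an assumed variation between cultures and centring on length.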

Additional observations from a re-analysis of the deposited data

How the results depend on the processing

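With 100 counts in PAX5 cells, 0 in control cells and a lower bound of 24.7-fold, PTGIS could hardly fall short in any setting. That it was past the rule on the higher side in all 12 alternatives therefore adds no support to the rule. The number of prostanoid genes past it on the lower side was 0, but 1 (TBXA2R) with upper-quartile factors, 1 (TBXA2R) at a 1.5-fold bound and 3 (TBXA2R, TBXAS1 and PTGER2) with a point ratio in place of the bound; the interval is what keeps the last pair out, at 21 and 10 summed counts. Counts over all features were 182 higher and 7 lower. They were 113 and 4 at a minimum of 50 counts, 110 and 3 with an assumed coefficient of variation of 0.2, 355 and 47 at a 1.5-fold bound, 70 and 2 at a 4-fold bound, and 547 and 234 with a point ratio. Centring on length left 4 lower; the cause was not tested. Only 4 settings, the 3 other scalings and the centring on length, can move a ratio; under them the 32 log2 ratios of 8 prostanoid genes stayed inside their counting intervals or, for PTGIS, above its lower bound, and 1 changed sign (PTGES2, at -0.01 with upper-quartile factors). The scalings moved ratios by about 0.03 at most and the centring by 0.10. No paired analysis was possible because each group has 1 library, and for the same reason no library could be left out. Depth limits PTGER2 and TBXAS1, whose wide intervals held 0, and PTGES and PTGS2, which were under the minimum of 10 counts.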
